A study of Mus musculus with 2 samples.

Results

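The CCT chaperonin subunits are the 8 genes Tcp1, Cct2, Cct3, Cct4, Cct5, Cct6a, Cct7 and Cct8. Their members here are all probe sets that the annotation of the Affymetrix MG_U74Av2 array maps to exactly 1 of these genes, which gave 13 probe sets of the 8 genes, out of 10833 probe sets of 8251 genes that have a single gene name. RNA came from mouse 3T3 cells, an established fibroblast line derived from embryos, and 1 array was hybridised for each of 2 conditions, both in serum-free DMEM. Suspension cells were unattached, for a time not stated by the labels. Fibronectin cells were cultured for 30 min on this matrix protein, a ligand of integrins, at 10 µg/ml. Per the labels, the aim was to find what fibronectin induces, with attention to the MAPK pathway. The series' text also speaks of 2 replicates, which the labels analysed here do not show. With a single array in each group there are no replicates, so none of the differences carries a test or an error over samples, and every direction given is one between these 2 arrays.

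CCT, also called TRiC, is the chaperonin of the eukaryotic cytosol. It is a hollow complex of a pair of stacked rings in which each ring holds one copy of each subunit, and new polypeptides fold inside it while the subunits bind and hydrolyse ATP. Its best known clients are actin and tubulin, whose folding depends on it, and many of its other clients are WD40 proteins such as the activators of the anaphase-promoting complex and G protein beta subunits. In fibroblasts it thereby supplies the subunits of both filament systems that reorganise when a cell attaches and spreads. Because the assembled complex needs its subunits in equal amounts, their transcripts serve here as a check of how closely genes of 1 complex agree in a single pair of arrays.

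The values are signals on a linear scale, scaled so that both arrays have the same trimmed mean. A ratio is the log2 signal on fibronectin minus that in suspension. Signals below a floor of 489.8, the mean of both arrays' 40th percentiles, were raised to it first, and a gene counts as measured where at least 1 array reached it. All 8 subunits were measured, and in each the brightest probe set reached the floor in both arrays, so that no subunit passed through 1 group alone. The 95th percentile of 34 negative control probe sets was 1403 in suspension and 1873 on fibronectin, and signals near or below it carry little information.

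As a group the CCT subunits stayed close to their suspension levels after 30 min on fibronectin. Of the 8, 5 had a ratio above 0 and 3 below, with a median log2 ratio of 0.07, beside -0.09 for all 6385 measured genes. Cct3 (1.82-fold) and Cct8 (1.60-fold) were higher by 1.5-fold or more, 0 subunits were lower by as much, and none reached 2-fold in its brightest probe set. Among all measured genes 15.9% were higher by 1.5-fold or more and 22.6% lower, and 5.79% and 9.27% passed 2-fold. With 8 genes, 2 higher subunits lie too near that background to be read as a result about the complex. The sign of the group median was not settled, since it was -0.08 after quantile normalization, -0.06 after loess, 0.28 when medians were matched (median scaling) and -0.40 when the added hybridisation spikes were matched. Median scaling moved the median of all measured genes from -0.09 to 0.11 and the spikes moved it to -0.51. Relative to that median the CCT subunits lay at 0.17 and 0.11 under these scalings, at 0.16 as reported, and at -0.05 and -0.04 after quantile normalization and loess. The shares of all genes past 1.5-fold upward and downward were 23.3% and 15.4% under median scaling, and 5.77% and 45.9% with the spikes.

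**Figure D1:**
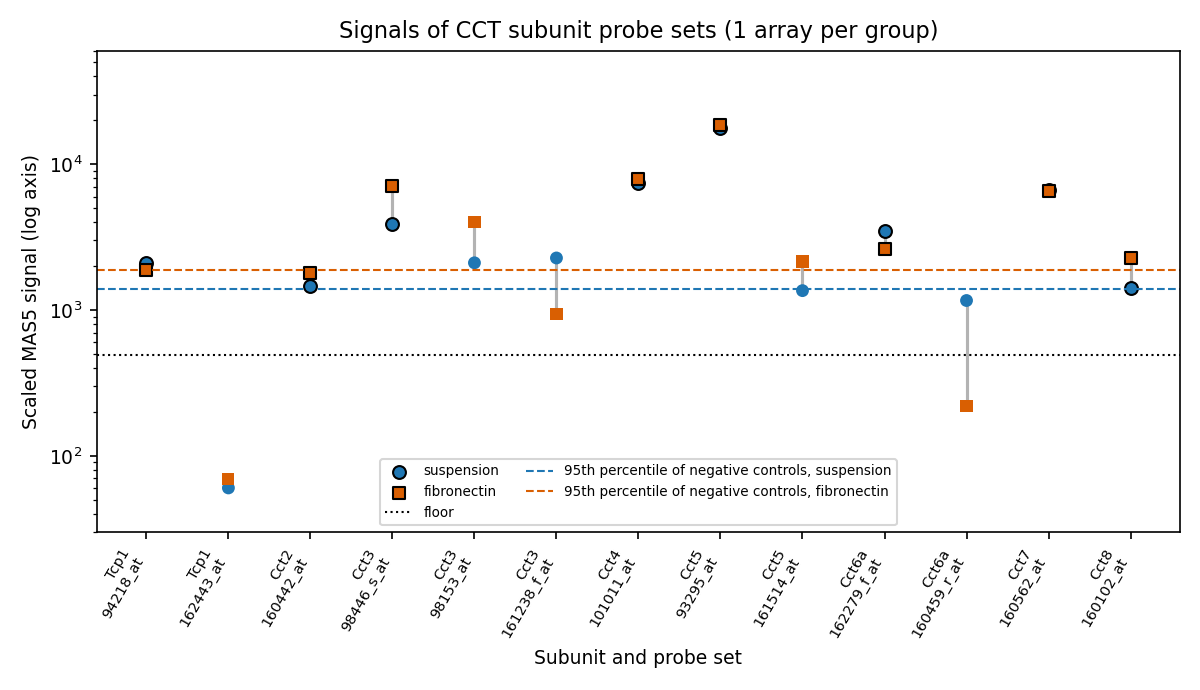
Scaled MAS5 signal (log axis) of the 13 CCT probe sets in suspension (circles) and on fibronectin (squares), with black outlines for the brightest probe set of each subunit. The dotted line is the floor and the dashed lines are the 95th percentiles of negative controls in each array, 1403 and 1873; Cct4, Cct5 and Cct7 have overlapping symbols in their brightest probe sets, while those of Cct3 and Cct8 lie apart. Heights of different probe sets are not comparable with each other.

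The subunits are described by their place in the ATP cycle, as known from other work: Tcp1, Cct2, Cct4 and Cct5 form the side of the ring that binds ATP tightly, and Cct3, Cct6a, Cct7 and Cct8 the side that binds it weakly. On the tight side, Cct5, the epsilon subunit, gave 17818 in suspension and 18441 on fibronectin, a log2 ratio of 0.05. Cct4, the delta subunit, had 7401 and 7918, a ratio of 0.10. Tcp1, the alpha subunit and the first of the family to be described, as a product of the t complex of mice, had 2105 and 1893, a ratio of -0.15 on the log2 scale. These 3 genes differed between the arrays by at most 1.11-fold, and the fibronectin signal of Tcp1 stood just above the negative controls there, 1873. Cct2, the beta subunit, had 1465 and 1798, a log2 ratio of 0.30, and its fibronectin signal did not exceed the 95th percentile of negative controls there. The ratios on this side of the ring thus lay between -0.15 and 0.30, with none past 1.5-fold.

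On the weak side the ratios were further apart. Cct7, the eta subunit, gave 6706 in suspension and 6576.5 on fibronectin, a log2 ratio of -0.03. Cct3, the gamma subunit, had 3867 and 7037 in its brightest probe set, a ratio of 0.86, the highest of the 8 and above that of 91.6% of all measured genes. Cct8, the theta subunit, had 1418 and 2271, a ratio of 0.68. Its suspension signal stood just above the negative controls, and with the floor raised to their level the ratio was 0.47, short of 1.5-fold. Cct6a, the zeta subunit, had 3479 and 2633, a ratio of -0.40 and the lowest of the 8. Cct3 and Cct8 were the 2 highest subunits and Cct6a the lowest under each of the 5 other scalings. The values as deposited, median scaling and the spikes shift every subunit's ratio equally, so there the order could not change. Across the 5 scalings the ratio of Cct8 stayed above 0 (0.21 to 0.89) and that of Cct6a below it. With the dimmest measured probe set Cct3 was the lowest subunit, at -1.27. This division of the ring was applied after the values had been seen, and the wider span of the weak side was not tested.

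The start regions of the subunits with the 2 highest ratios and the lowest one are shown to let their promoters be set side by side. They are the 120 bases before the annotated start in RefSeq on GRCm38.p6, 5′ to 3′ on the gene's strand, at chr3:88297015-88297134 on the plus strand for Cct3, chr16:87495870-87495989 on the minus strand for Cct8 and chr5:129787236-129787355 on the plus strand for Cct6a. Capitals mark matches, on either strand, to the motifs searched. These were the GC box (letters GGGCGG), the promoter box with the letters CCAAT, the core of sites for Ets factors (letters CCGGAAG) and the heat shock element in its forms GAANNTTC and TTCNNGAA, none of which overlapped in these windows.
Cct3: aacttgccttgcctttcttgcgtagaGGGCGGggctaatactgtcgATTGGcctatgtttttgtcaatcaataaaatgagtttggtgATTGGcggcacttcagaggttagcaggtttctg
Cct8: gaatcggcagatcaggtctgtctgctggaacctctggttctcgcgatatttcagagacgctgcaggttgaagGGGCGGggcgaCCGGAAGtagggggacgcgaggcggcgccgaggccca
Cct6a: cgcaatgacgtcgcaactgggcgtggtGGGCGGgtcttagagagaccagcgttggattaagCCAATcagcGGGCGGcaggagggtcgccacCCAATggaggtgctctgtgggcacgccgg

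The promoters of Cct3 and Cct6a both held GC boxes and CCAAT boxes. In Cct3 a GC box began 94 bases before the start and CCAAT boxes, on the opposite strand, 74 and 33 bases before it. In Cct6a CCAAT boxes began 59 and 29 bases before the start and GC boxes 93 and 50 bases before it. Cct8 had no CCAAT box in its window and held a GC box at 48 and an Ets core at 37 bases before the start.

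A promoter was found for 7 of the 8 subunits, in 9 windows of 250 bases before the start, since Cct2 and Cct5 have 2 annotated starts each. The GC box was present for all 7 genes (8 of the 9 windows), against 32.7% of all 32851 promoter windows of the same length. CCAAT boxes were present for Cct3, Cct6a, Cct7 and Tcp1, against 33.85% of all windows. The Ets core was present for Cct8 and Cct2 and in 6.91% of all windows. Of the heat shock element forms, GAANNTTC was found at 1 start of Cct2 and TTCNNGAA at 1 start of Cct5, with 6.69% and 7.17% among all windows. A match shows that the letters are present and does not show a site in use. Whether these motifs have a part in the ratios was not tested.

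Several subunits are read by more than 1 probe set, which gives a second view of the same transcript. Cct3 has 3. Of these 98446_s_at and 98153_at read 0.86 and 0.93 on the log2 scale, the second from 2107 in suspension and 4012 on fibronectin. The third, 161238_f_at, went the other way, from 2274 to 940.3, a ratio of -1.27. Its letter f marks a set whose probes can bind several members of a sequence family, and its fibronectin signal was under the level of the negative controls, 1873. The ratio of Cct3 as the mean of its 3 probe sets was 0.17, so its 1.5-fold difference rests on leaving out the dimmest set.

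Cct5 and Cct6a had a second measured probe set each. That of Cct5, 161514_at, had 1358 in suspension and 2150.4 on fibronectin, a ratio of 0.66, with the suspension signal below the negative controls. That of Cct6a, 160459_r_at, had 1162 in suspension and 221 on fibronectin, both below the negative controls, and the gene was at least 2.37-fold lower in it. Both probe sets of Cct6a thus had lower values on fibronectin, the second of them within the background. The direction of Cct5 was not settled. Its brightest probe set read only 0.05, and -0.15, -0.08 and -0.42 with quantile normalization, loess and the spikes. The second probe set of Tcp1, 162443_at, had signals of 60.2 and 69.0 and was not measured, and Cct2, Cct4, Cct7 and Cct8 have 1 probe set each. Counting the 12 measured probe sets, 7 had ratios above 0 and 5 below. Of them 4 were past 1.5-fold upward and 2 downward, beside 16.6% and 22.7% of all 7735 measured probe sets.

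**Figure D2:**
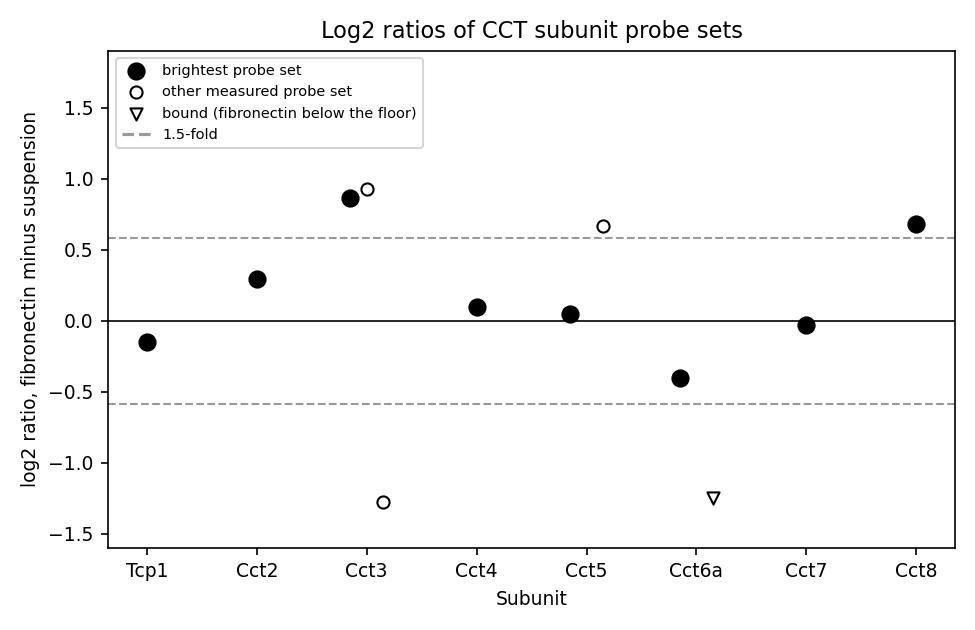
Log2 ratio (fibronectin minus suspension) of each measured CCT probe set by subunit; filled circles are the brightest probe sets, open circles the others, the triangle is a bound for Cct6a, whose fibronectin signal lay below the floor, and dashed lines mark 1.5-fold. The brightest sets lie between -0.40 and 0.86, and the dimmest set of Cct3 stands at -1.27, far from the other 2 of that gene.

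Agreement between subunits was measured by the spread of their ratios. The SD of the 8 log2 ratios was 0.42, and the widest gap, between Cct3 and Cct6a, was 1.27 (2.40-fold). Leaving aside Cct3 and Cct8, the other 6 lay between -0.40 and 0.30. Of the 28 pairs of subunits, 18 (64.3%) had ratios within 1.5-fold of each other. Cct2 and Cct4 were within 1.5-fold of 6 of the 7 others, Cct5, Cct7 and Tcp1 of 5, Cct6a of 4, Cct8 of 3 and Cct3 of 2.

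The same measures over other genes give the scale for this. Over all measured genes the SD was 0.70 and 45.6% of pairs lay within 1.5-fold. Over 2613 measured genes with mean signals in the range of the CCT subunits (1623 to 18127), the SD was 0.58 and 53.8% of pairs did. Different probe sets of 1 gene, which should read the same change, differed from their gene's mean with an SD of 0.70 over 1146 genes, and of 0.49 over the 238 genes with more than 1 probe set in that signal range. The 7 measured probe sets of Cct3, Cct5 and Cct6a gave 0.96 by the same measure. The SD among the 8 CCT subunits, 0.42, was thus smaller than each of these 3 values for probe sets of the same gene. The selections are unlike, since 0.42 comes from the brightest sets alone and the 3 values pool brighter and dimmer sets. With the dimmest measured sets the SD among the subunits was 0.76, larger than 0.70 and 0.49. With genes limited to those whose signals exceeded the negative controls in both arrays, 7 subunits remained, without Cct2, with an SD of 0.45 and 57.1% of pairs within 1.5-fold, beside 0.50 and 59.4% over 2263 genes and 0.40 for probe sets of 1 gene. Of these 7, Cct8 in suspension and Tcp1 on fibronectin (1893 against 1873) stood just above the control level. The gap between probe sets of Cct3, 2.20, was larger than the gap between any 2 subunits. Among the 140 genes that also have 3 measured probe sets, 88.6% had a smaller gap. In Cct5 and Cct6a the gaps were 0.61 and 0.84, and 51.8% and 65.0% of the 979 genes with 2 measured probe sets had smaller ones.

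Other complexes and chaperones were spread as follows. The 14 subunits of the 20S proteasome core, the protease barrel that also needs its parts in fixed proportion, had an SD of 0.31, a median of 0.07 and 83.5% of pairs within 1.5-fold, with Psma4 (log2 ratio 0.60) as its single gene past 1.5-fold. The cytosolic HSP70 and HSP90 chaperones and their partners had an SD of 0.42 over 16 genes, a median of 0.09 and 64.2% of pairs. Among them HSP70 hands clients to CCT, besides other duties. Hspa8, the constitutive HSP70, had signals of 20648 and 22839.8, a ratio of 0.15. Hspbp1, a nucleotide exchange factor of HSP70, had a ratio of -0.77, with a fibronectin signal of 1130 below the negative controls. The MCM ring, the helicase of replication, had an SD of 0.47 over 5 measured genes and 5 of 10 pairs, with Mcm5 and Mcm4 at -0.80 and -0.69. The SD of the CCT subunits lay between those of the proteasome core and the MCM ring, but signal levels were not matched between these lists. Most proteasome genes exceeded the negative controls in both arrays. Mcm4 (1372) and another MCM gene did not exceed them on fibronectin. A second probe set of Mcm5, with both signals below the controls, read -0.13. The differences in spread were not tested, as 1 pair of arrays allows no test of them. The median of the chaperones was above 0 except with scaling to the spikes (-0.38), and that of the proteasome was below 0 with the spikes (-0.41), quantile normalization (-0.08) and loess (-0.05).

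**Figure D3:**
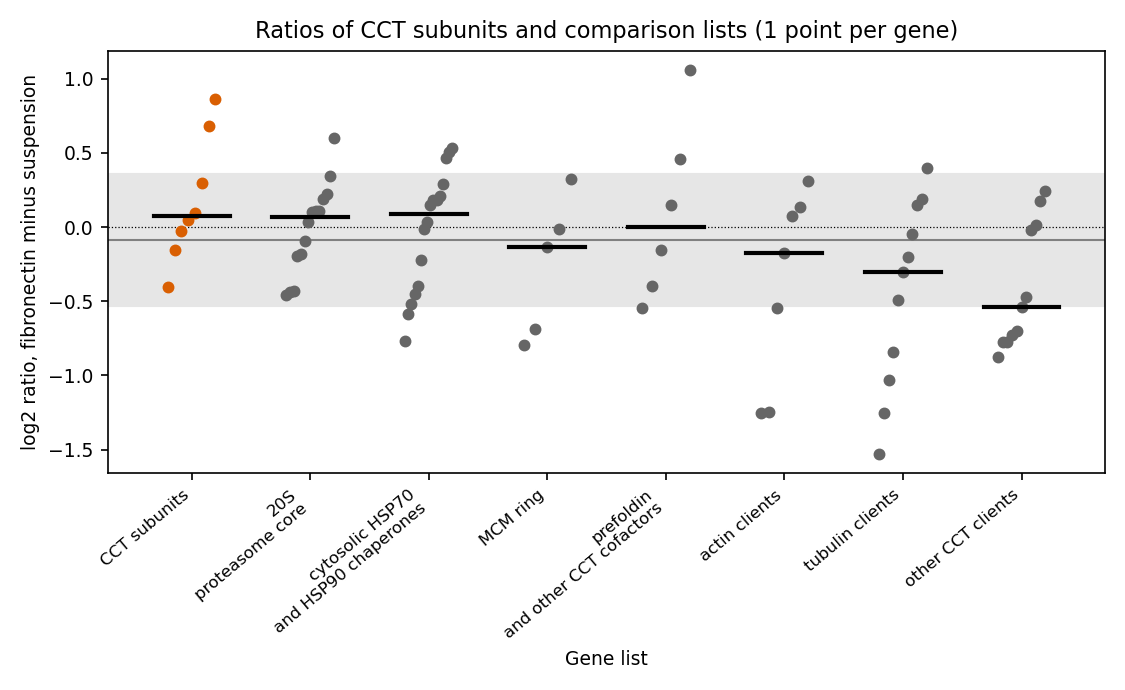
Log2 ratio (fibronectin minus suspension) of each measured gene, 1 point per gene from its brightest probe set, for the CCT subunits and the comparison lists, with black bars for list medians; the grey band is the interquartile range of all 6385 measured genes and the grey line their median, -0.09. CCT subunits have a median of 0.07 and a spread between that of the proteasome core and of the tubulin clients.

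Prefoldin is the cofactor that captures new actin and tubulin chains and delivers them to CCT. Of 7 genes of prefoldin and other CCT cofactors on the array, 6 were measured. Of these 1 passed 1.5-fold upward and 0 downward, beside 15.9% and 22.6% of all measured genes. The SD of the 6 was 0.60 and their median -0.002, whose sign changed between scalings (-0.32 to 0.20). Vbp1, the prefoldin subunit 3 gene, had signals of 1766 and 3680.5, a log2 ratio of 1.06, higher than that of any CCT subunit. The other prefoldin genes were Pfdn6 at 0.46, Pfdn5 at -0.40 and Pfdn2 at -0.55, while Pfdn1 was below the floor in both arrays. The fibronectin signals of Pfdn5 (1325) and Pfdn2 (1556) lay below the negative controls there, while Vbp1 and Pfdn6 exceeded the controls in both arrays. The genes of this second complex thus had ratios on both sides of 0, but those below 0 rest on fibronectin signals within the background. Whether its genes differ in direction was therefore not settled.

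Tubulin genes are clients of CCT, and their probe sets often disagree. Of 11 measured genes 8 lay below 0, as did 3515 of all 6385 measured genes. Of the tubulins 4 passed 1.5-fold downward and 0 upward, beside 22.6% and 15.9% of all genes. Their median of -0.30 kept its sign but not its size under the 12 alternatives, from -0.08 with the floor at the negative controls to -0.78 with the spikes and -1.03 with plain probe sets, those without a letter in their name. Tubb4a, Tubb4b and Tubb2a had log2 ratios of -1.53, -1.03 and -0.84, and the centrosomal tubulin Tubg1 was at least 2.38-fold lower, with signals of Tubb4a, Tubb4b and Tubg1 on fibronectin below the negative controls there. The suspension signal of Tubg1, 1168, was below them too, so its bound rests on the floor. Tuba1a had signals of 62737 in suspension and 44662 on fibronectin in its brightest probe set, a ratio of -0.49, and -1.08 in the other. Tubb5 read 0.19 and -0.22 in its 2 sets, so its direction was not settled. Tubulin isotypes are similar in sequence, and several of these probe sets carry the letter f, so a value may mix genes.

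Actin clients were divided in a similar way. Of 7 measured genes 3 had ratios above 0 and 4 below, and 2 passed 1.5-fold downward and 0 upward, beside 22.6% and 15.9% of all genes. The median was -0.18, and from -0.65 with the spikes to 0.03 under median scaling. Actg1, the gamma actin of the cytoskeleton, had signals of 76275 and 80255.5, a log2 ratio of 0.07. Actb had -1.25 in its brightest gene probe set and -0.59 in the other. Its 3 control probe sets lie along the same transcript and read -0.24 at the 3′ end, 0.33 in the middle and 0.35 at the 5′ end. The direction of Actb was thus not settled, and the part of the 3′ to 5′ difference between the arrays, given below, was not tested. The actin-related gene Actr1a had signals of 1512 and 637 and a ratio of -1.25, with the fibronectin signal below the negative controls there. Gamma actin was thus as near to its suspension level as Cct4 and Cct5 were, while beta-actin depended on the probe set read.

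Facts of the arrays bear on all these values. The instrument files give 32 settings for both arrays, and the 4 that differ (lot of the chip, operator, module of the fluidics station, day of the scan) cannot be told apart from the group. The ratio of 3′ to 5′ signal, a sign of RNA length, was 1.79 in suspension and 1.19 on fibronectin for the beta-actin controls, and 1.47 and 0.84 for Gapdh; their part in the ratios of the CCT probe sets was not tested. Of 10 fibroblast markers, 9 were measured, Thy1 being below the floor, and their summed signal was 153183 in suspension and 220202 on fibronectin. Most of that sum came from Col1a1 (45605 and 68592) and Col1a2 (36666 and 63147), while 3 of the 9 had ratios below 0, Vim at -1.05, Lum at -0.40 and Fn1 at -0.05. The fibronectin signals of Vim (686) and Lum (599) lay below the negative controls there. Of the markers of macrophages, epithelium and endothelium, 2 of 5, 4 of 4 and 2 of 4 were measured, with summed signals of 3129, 3578 and 1836 in suspension and 2789.6, 2040.4 and 1003 on fibronectin. In suspension 1 macrophage marker (Csf1r) and 1 epithelial marker (Cdh1) exceeded the negative controls and on fibronectin 0 of these 13 did, and their part in the CCT values was not tested.

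**Figure D4:**
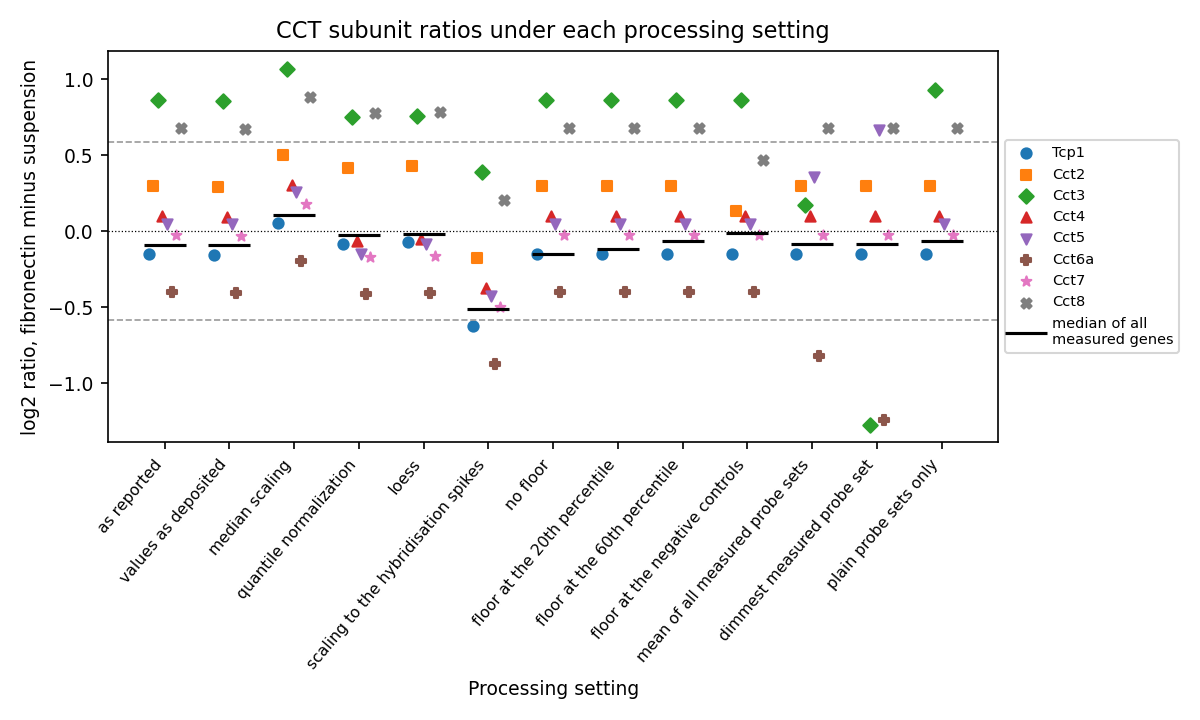
Log2 ratio (fibronectin minus suspension) of each CCT subunit, 1 symbol per subunit, under the reported setting and 12 others, with black bars for the median of all measured genes and dashed lines at 1.5-fold. Scaling moves all subunits together, as with the spikes, where they lie between -0.88 and 0.39. Reading the dimmest probe set moves Cct3 to -1.27, Cct6a to -1.25 and Cct5 to 0.66 and leaves the genes with 1 measured probe set in place.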

How the data were processed

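The authors deposited linear intensities, a MAS5 signal for every probe set per the submitters' processing notes, with version and scaling target not stated there. The deposited instrument files hold text settings. Arrays were brought to a common 2% trimmed mean over the 12422 probe sets other than controls, which changed them by factors of 0.999 and 1.00. The floor was set after scaling and before log2. Where 1 array lay below the floor the fold is a bound. Each gene was read from its probe set with the highest mean floored log2 signal. Names come from the platform annotation (10855 of 12488 probe sets with 1 gene, 396 with several, 1237 unnamed here). No test was possible with 1 array per group, so genes are counted by size at 1.5-fold and 2-fold, and the number of arrays limits the precision. The deposited data were read with Python 3.11.15 (pandas 2.3.3, scipy 1.17.1); loess used statsmodels 0.14.6 with a span of 0.3. The ratio calculation was tested on simulated data.

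Every CCT probe set is named. From each comparison list the text takes up to 6 measured genes at least 1.5-fold apart, and always Actb, Actg1, Tuba1a, Tubb5, Hspd1, Hspe1, Hspa8 and the prefoldin genes. No gene is named for a like pattern, since 2 arrays give 1 difference. The members and lists were chosen with earlier results of these data known. Alternatives were 5 scalings, 4 floors and 3 choices of probe set.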

Additional observations from a re-analysis of the deposited data

How the results depend on the processing

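The 12 alternatives were run on the median, the SD and the counts of the CCT subunits, on each subunit and on the 9 lists. The median ranged from -0.40 (scaling to the spikes) to 0.28 and was above 0 in 9 alternatives. Matching the spikes shifts the ratios of all 8 subunits by the same amount, and why the spikes gave that shift was not tested. From this shift, 0 subunits passed 1.5-fold upward and 2 downward. With the floor at the level of the negative controls 1 subunit passed it upward. With the mean of all measured probe sets 1 passed it upward and 1 downward. With the dimmest measured probe set 2 passed it upward and 2 downward, beside 16.2% and 22.7% of all measured genes. In that setting Cct5 read 0.66, the SD was 0.76 and Cct3 reversed to -1.27, which follows from reading other probe sets of the same genes. In the other alternatives the SD lay between 0.39 and 0.45. Of 95 single values of subunits, 93 moved by less than 1 SD of probe sets of 1 gene (0.70). That limit is wider than 1.5-fold (0.58), so Cct3 at 0.17 with the mean of its probe sets counts among them. Many of the values could hardly move. No subunit changed without a floor or with floors at the 20th and 60th percentiles, and choices of probe set cannot change genes with 1 measured set. The count is thus no measure of robustness. Cct6a has no plain probe set and was left out of that alternative. Of 108 list medians, 92 moved by less than that SD divided by the root of the number of genes. No paired analysis was possible because each group has 1 array. Signals near the negative controls limit Cct2, Cct8, Tcp1, the dimmest probe set of Cct3 and the second probe sets of Cct5 and Cct6a.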

Other observations

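Relatives and other partners of CCT gave the following values. Cct6b, a paralogue of Cct6a known from testis, had signals of 1503 in suspension and 573 on fibronectin, a log2 ratio of -1.39, with the fibronectin signal below the negative controls. The probe set of the pseudogene Tcp1-ps1 was below the floor in both arrays, with signals of 123 and 319.5. Hspd1, the chaperonin of the mitochondrial matrix, had signals of 11714 and 8672, a ratio of -0.43. The second probe set of Hspd1 gave a bound of at least 1.68-fold lower, from signals below the negative controls in both arrays. Its lid Hspe1 had 5419.9 and 5508, a ratio of 0.02.

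The tubulin folding cofactors, which take tubulin over from CCT, had 4 measured genes of 5 on the array. Arl2, a small GTPase that acts with them, had a log2 ratio of -0.95, with a fibronectin signal of 1478 below the negative controls. Tbce was at least 1.998-fold higher, just short of 2-fold, with a fibronectin signal of 979 that lay below the negative controls.

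Among 11 other clients of CCT, read from their brightest probe sets, 8 had ratios below 0. Of the 11, 5 passed 1.5-fold downward and 0 upward, beside 22.6% and 15.9% of all measured genes. Their median log2 ratio was -0.54, and from -0.98 to -0.33 under the 12 alternatives. The cyclin gene Ccne1 had a ratio of -0.78, the histone deacetylase gene Hdac3 -0.77 and the mitotic kinase gene Plk1 -0.73. Gnb5 and Vhl were at least 1.84-fold and 1.62-fold lower, from suspension signals below the negative controls. Hdac3 was the one of these 5 with both signals above the negative controls. Other probe sets gave different values. Gnb1 read -0.02 in its brightest set but 0.68 and 0.58 in others, and Stat3 0.02 and 0.63, all with signals above the negative controls. Other sets of Plk1 gave bounds of at least 4.89-fold and 2.39-fold lower, with fibronectin signals below the negative controls. The second set of Mlst8 read -0.15, within the background.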
